A study of Mus musculus with 6 samples.

Results

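The 10 genes followed here mark the first steps by which pluripotent cells leave that state: Evx1, T, Mixl1 and Gsc of the primitive streak, Kdr and Nr2f2 of mesoderm, and Sox17, Foxa2, Gata4 and Gata6 of endoderm. They were taken by symbol from the 21978 entries of the deposited tables, and all 10 were found. The list was drawn up with results of these libraries in view. Evx1 in particular had been picked out for its counts in KO, wt and E518K cells. Differences of the 10 genes between the groups are therefore given as a description, without p values, and nothing is supported with them.

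The libraries hold poly(A) RNA of mouse embryonic stem cells, 6 in all, with 2 in each of 3 groups that differed in DGCR8, the partner of the nuclease Drosha in the release of miRNA precursors. KO cells had the genotype DGCR8 -/- and were not transfected, and both libraries carry clone number 261 (libraries 1 and 3). The wt cells (clones 12 and 16, labelled DGCR8 wt/wt) and the E518K cells (clones 8 and 15, labelled DGCR8 E518K/E518K) had received an inducible vector for Flag-tagged DGCR8 together with a plasmid for the SB100X transposase, so transfection differs between KO and the other groups as well. The labels do not say whether the transfected lines came from KO cells. Each transfected library is 1 clone. All 6 cultures, KO included, received 300 ng/mL doxycycline for 48 h and grew without feeders in serum medium with LIF, the GSK3 inhibitor CHIR99021 (3 µM) and the MEK inhibitor PD0325901 (1 µM).

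During gastrulation, cells of the epiblast pass through the primitive streak and become mesoderm or definitive endoderm, under Wnt, Nodal and BMP signals. T and Mixl1 are early targets of these signals, and Gsc and Foxa2 mark the anterior streak. Gata4, Gata6 and Sox17 also serve in the primitive endoderm, an extraembryonic lineage that stem cells can form. Inhibition of GSK3 stabilises beta-catenin, which activates streak genes, whereas inhibition of MEK blocks a signal needed for lineage entry. miRNAs of the miR-290 cluster are abundant in mouse embryonic stem cells and depend on DGCR8.

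Library totals ranged from 73642784 to 75121971 counts. Dgcr8 counts were low in KO (39.96 and 37.07 CPM, which are counts relative to the library total scaled with TMM factors). They differed among induced clones: wt clone 12 had 195.5 CPM and wt clone 16 had 992.4, while E518K clone 8 had 820.6 and E518K clone 15 had 420.2. The labelled cell type was checked with 12 pluripotency markers, all detected in every group, whose summed level was 6395 to 6520 CPM in KO, 7177 to 8454 in wt and 7453 to 7552 in E518K. Pou5f1 alone stood at 1076 to 1361 CPM and Dppa5a at 1195 to 2029 CPM. Markers of other cell types were low: 12 neuroectoderm markers summed to 28.5 to 42.33 CPM over the 6 libraries, 11 trophectoderm markers to 44.66 to 89.45 CPM and 9 fibroblast markers to 3.566 to 7.6 CPM. The most abundant of these were Olig2 and Nes, Tfap2c and Krt8, and Pdgfrb and Col1a1. Tpbpa of trophoblast was at 0 in all 6 libraries, and Fap of fibroblasts at 0 in KO and E518K. The trophectoderm sum was highest in KO (84.52 to 89.45 CPM, with Krt8 at 26.82 and 28.98 CPM) against 64.53 to 71.75 in wt and 44.66 to 54.39 in E518K. In KO this sum was mostly Tfap2c and Krt8. The list did not move as 1: of its 7 tested markers 1 rose and 3 fell in KO against wt. The part of this sum in the results below was not tested.

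All 10 genes were scarce beside the pluripotency factors. Levels between genes were set on CPM per kilobase of exon. Counts may include intronic reads (below), in which case genes with long introns stand too high on this scale. On this scale Gsc led in wt cells with 1.11 ± 0.0919 (SD, n = 2), followed by T at 0.747 ± 0.0479, Gata4 at 0.273 ± 0.0682 and Mixl1 at 0.184 ± 0.0732. The other 6 genes lay below 0.1 in wt cells. Among them Evx1, Foxa2, Sox17 and Gata6 stood at 0.0828 ± 0.0425, 0.0806 ± 0.0152, 0.0716 ± 0.00505 and 0.0648 ± 0.0317, neighbours that did not differ beyond their spread, and Nr2f2 and Kdr closed the order at 0.0475 and 0.0181. In KO cells the order was different at the top, with Evx1 first at 3.06 ± 0.117, then Gsc at 2.27 ± 0.169, T at 0.531 ± 0.215 and Kdr at 0.432 ± 0.0230. Gata6 at 0.0129 ± 0.00143 and Sox17 at 0.0190 ± 0.0115 closed the order in KO, within their spread of each other. In E518K cells Gsc led at 1.71 ± 0.122, T followed at 1.12 ± 0.262 and Evx1 at 0.851 ± 0.118, the last 2 within their spread. For Gata4 only 5.4% of the span is exonic, so its place in this order is the least certain.

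**Figure D1:**
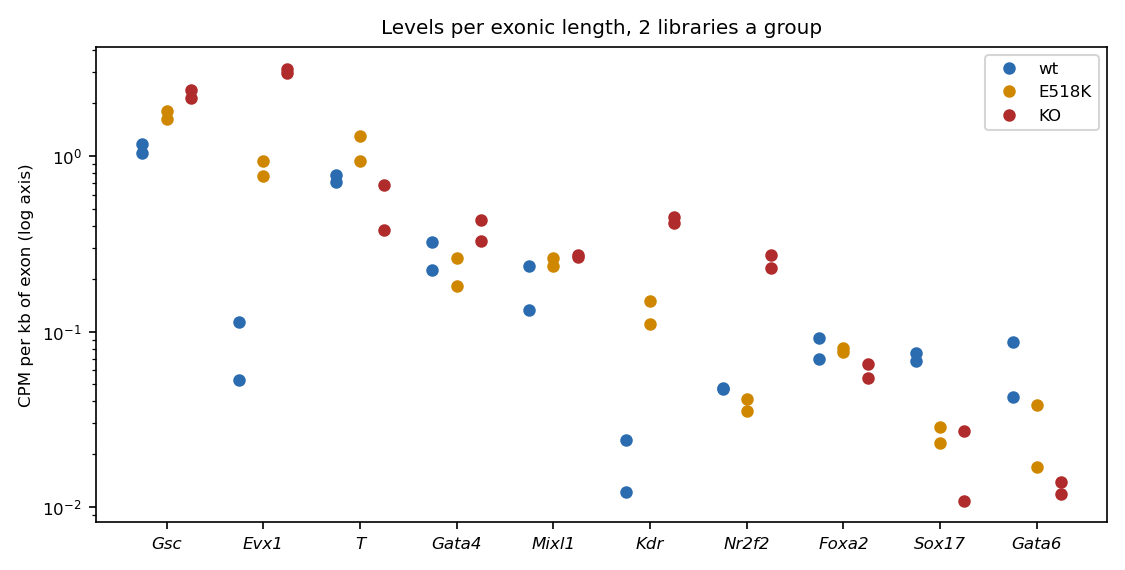
CPM per kilobase of exon (log axis) for the 10 genes, ordered by their mean over all 6 libraries, with 1 point per library and 2 libraries per group. The order differs between groups: Gsc leads in wt and E518K and Evx1 in KO. Kdr is last in wt, while Sox17 and Gata6 have the lowest means in E518K and in KO, within their spread of each other.

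All 10 genes passed the default expression filter of edgeR, but only 7 reached its cutoff of 0.135 CPM in every library, taken before TMM scaling, so that values near it can lie on the other side on the scaled CPM printed below. Kdr was below it in 1 wt library, Sox17 in all KO and E518K libraries (it passed through the wt clones, where it was high, and so had to differ), and Gata6 in both KO libraries and 1 E518K library. A gene was called too low to compare where its mean was under 0.1 TPM (a level relative to gene length and library total) in every group, which left out Gata6 (0.0174, 0.0856 and 0.0342 TPM in KO, wt and E518K). The nearest gene above this limit was Gata4, with 0.140 TPM in KO. The deposited TPM takes the genomic span, introns included, as gene length (below), so long genes fall under this limit more readily. Gata6 spans 33572 bases, against 6424 for Sox17 and 4093 for Foxa2. Its total counts (13, 62 and 26 in KO, wt and E518K) were near those of Sox17 (14, 50 and 18) and Foxa2 (22, 28 and 27), which were compared. Gata6 was thus left out by its span as well, and not by counts alone. The other 9 genes were compared.

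Evx1, a homeobox gene of the posterior streak, differed most. Both KO libraries were high, at 8.57 and 9.05 CPM (663 and 698 counts). The wt clones 12 and 16 were low, at 0.152 and 0.325 CPM (11 and 24 counts), and the E518K clones 8 and 15 had 2.21 and 2.69 CPM (159 and 196 counts). The 3 groups did not overlap, and both E518K clones lay between wt and KO. KO exceeded wt by 5.20 ± 0.33 on the log2 scale (SE, 95% interval 4.43 to 5.96), or 36.7-fold, and E518K exceeded wt by 3.35 ± 0.32 (2.59 to 4.11), or 10.2-fold. Without wt clone 16 these differences were 5.84 and 3.997. E518K stood below KO, at -1.85 ± 0.26 (-2.45 to -1.24). In RNA from a whole culture, a rise per cell and a larger number of expressing cells cannot be told apart.

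The span of Evx1 (chromosome 6, 52313498 to 52318378, plus strand, GRCm38) overlaps the antisense gene Evx1os over 1335 bases, 27.35% of the span. Evx1os has no row in the deposited tables, and the labels do not say whether counting used strand, without which its reads and those of Evx1 cannot be told apart. The 250 bases before its start (chr6:52313248-52313497, plus strand) are shown because this gene had the largest difference; they hold none of the TCF/LEF letters (CTTTG followed by AA, AT, TA or TT, on either strand), and their GC content is 49.6%.

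Evx1: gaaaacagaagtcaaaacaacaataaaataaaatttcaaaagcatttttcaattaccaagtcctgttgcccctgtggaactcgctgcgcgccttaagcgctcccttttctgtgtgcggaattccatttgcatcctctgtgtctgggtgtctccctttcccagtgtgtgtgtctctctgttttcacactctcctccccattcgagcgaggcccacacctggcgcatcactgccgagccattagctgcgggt

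T encodes Brachyury, the T-box factor that defines the streak (chromosome 17, 8434423 to 8442496, plus strand). It showed another order. Its level was 0.879 and 1.58 CPM in KO, 1.81 and 1.65 CPM in wt, and 3.01 and 2.15 CPM in E518K. KO library 1 was low, with 68 counts against 122 in KO library 3, and the E518K clones were the highest of the 6. The difference between KO and wt was -0.49 ± 0.33 (95% interval -1.27 to 0.29), and that between E518K and wt 0.58 ± 0.33 (-0.19 to 1.35). E518K stood above KO by 1.07 ± 0.33 (0.29 to 1.85), past the threshold of the fit over all genes. That call was lost without KO library 1 (0.71), E518K clone 8 (0.81) or E518K clone 15 (1.31).

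The 250 bases before the start of T (chr17:8434173-8434422, plus strand) hold 1 match to the TCF/LEF letters, in capitals, whose first base lies 235 bases before the start. Such letters occur in 14.8% of 32851 RefSeq promoters of this length. They are shown because the medium holds an inhibitor of GSK3, and a match is a description and not a site.

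T: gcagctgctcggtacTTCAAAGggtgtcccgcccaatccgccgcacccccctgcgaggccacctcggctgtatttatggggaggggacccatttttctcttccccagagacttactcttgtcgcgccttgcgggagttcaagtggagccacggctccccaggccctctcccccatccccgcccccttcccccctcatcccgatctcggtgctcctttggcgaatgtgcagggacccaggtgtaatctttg

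Mixl1, a paired-type homeobox gene of the streak (chromosome 1, 180693043 to 180697034, minus strand), differed little. It had 0.608 and 0.622 CPM in KO, 0.303 and 0.541 CPM in wt, and 0.541 and 0.603 CPM in E518K. Only wt clone 12 stood apart, with 22 counts against 39 to 48 in the other 5 libraries. The intervals ran from -0.38 to 1.46 for KO against wt and from -0.49 to 1.37 for E518K against wt. Rises of more than 2-fold are therefore not excluded.

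Gsc, the homeobox gene of the anterior streak and organizer (chromosome 12, 104471209 to 104473330, minus strand), was graded. It had 3.03 and 2.72 CPM in KO, 2.28 and 2.06 CPM in E518K, and 1.49 and 1.33 CPM in wt, and no groups overlapped. KO exceeded wt by 1.03 ± 0.21 (0.53 to 1.53), or 2.04-fold, a call that was lost without KO library 1 (0.95). E518K exceeded wt by 0.62 ± 0.21 (0.12 to 1.12) and did not pass over all genes, although it did without wt clone 12 (0.71). E518K against KO was -0.41 ± 0.21 (-0.90 to 0.08). Both comparisons with E518K passed with limma on log2(TPM + 1), at 0.47 and -0.46.

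Kdr encodes the receptor for VEGF on mesodermal progenitors of blood and vessels (chromosome 5, 75932827 to 75978458, minus strand). KO had 3.75 and 4.04 CPM (290 and 312 counts). The wt clones had 0.110 and 0.216 CPM (8 and 16 counts), and the E518K clones 0.999 and 1.34 CPM (72 and 98 counts). As for Evx1, the groups did not overlap and E518K lay between the others. KO exceeded wt by 4.56 ± 0.36 (3.71 to 5.41), or 23.6-fold, and E518K exceeded wt by 2.83 ± 0.37 (1.97 to 3.69), or 7.10-fold. E518K against KO was -1.73 ± 0.30 (-2.43 to -1.04). The fold against wt rests on few counts there.

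Nr2f2 encodes COUP-TFII, an orphan nuclear receptor of mesenchyme and veins (chromosome 7, 70351944 to 70366735, minus strand). It had 2.34 and 2.00 CPM in KO, 0.414 and 0.406 CPM in wt, and 0.305 and 0.357 CPM in E518K. Here both E518K clones lay just below wt and far from KO. KO exceeded wt by 2.40 ± 0.29 (1.73 to 3.07), or 5.27-fold, and E518K against KO was -2.71 ± 0.29 (-3.39 to -2.02). E518K and wt differed by -0.31 ± 0.31 (-1.03 to 0.42). The noncoding gene B130024G19Rik overlaps 12.34% of the span on the other strand and has no row in the tables.

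The window before Nr2f2 (chr7:70366747-70366996, minus strand) is shown as the only other of the 6 genes with a RefSeq promoter to hold the TCF/LEF letters, which start 114 bases before its start. The letters of a GATA match (A or T, then GATA, then A or G, on either strand, in 26.5% of promoters) begin 118 bases before it and overlap that match. Kdr and Gsc held neither, and of 3 annotated Foxa2 starts 1 held a GATA match. None of the windows held the T-box letters TCACACCT, found in 1.12% of promoters.

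Nr2f2: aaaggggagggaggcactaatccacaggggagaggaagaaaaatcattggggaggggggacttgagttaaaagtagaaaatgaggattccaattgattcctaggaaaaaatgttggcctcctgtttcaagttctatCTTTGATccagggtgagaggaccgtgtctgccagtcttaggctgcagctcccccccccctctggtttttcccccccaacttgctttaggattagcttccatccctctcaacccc

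**Figure D2:**
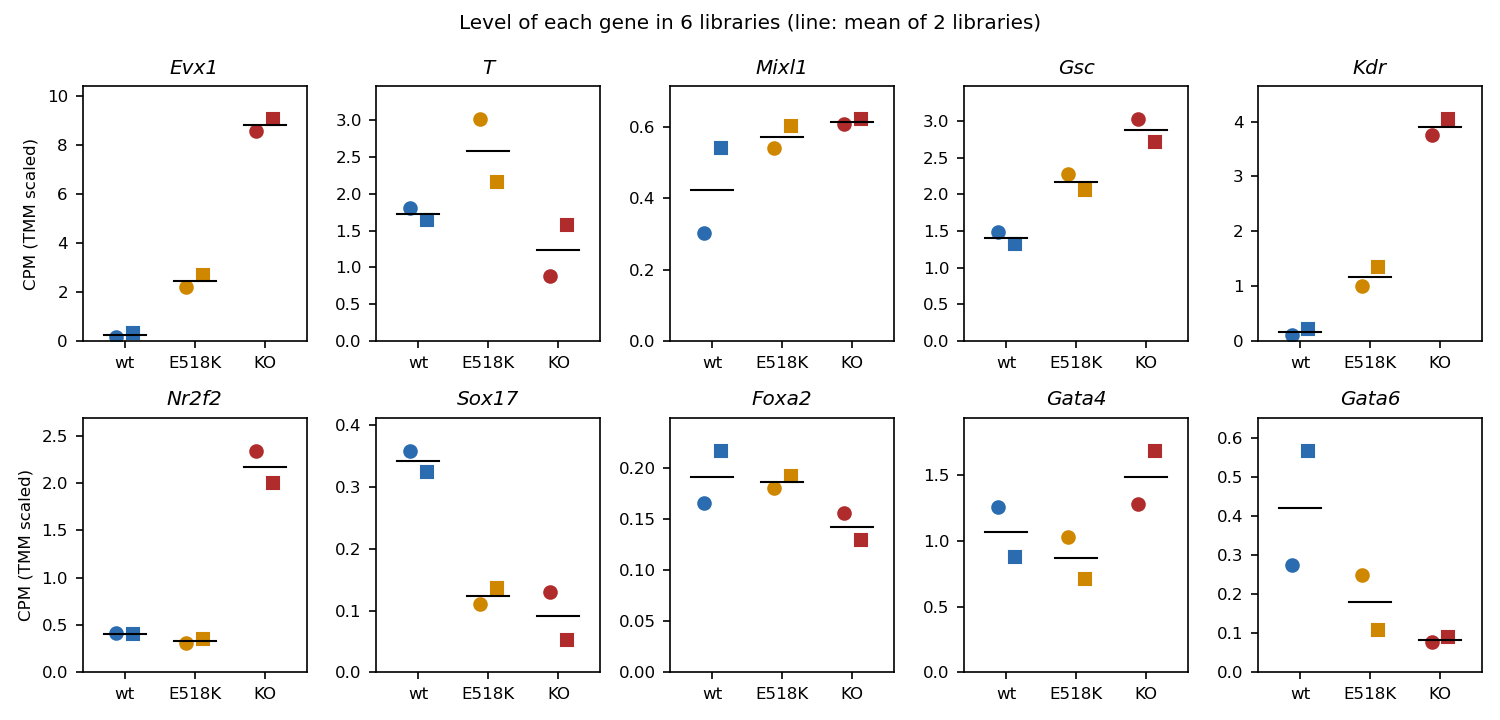
CPM (linear axis from 0, its own range for each gene) of the 10 genes in wt, E518K and KO, with a line at the mean of the 2 libraries (circles: wt clone 12, E518K clone 8, KO library 1; squares: wt clone 16, E518K clone 15, KO library 3). Evx1, Kdr and Gsc step up from wt over E518K to KO, Nr2f2 is high in KO alone, and T is highest in E518K.

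Sox17, an HMG-box factor of endoderm (chromosome 1, 4490931 to 4497354, minus strand), went the other way. The wt clones had 26 and 24 counts (0.359 and 0.325 CPM). KO had 10 and 4 counts (0.129 and 0.0518 CPM), and E518K had 8 and 10 (0.111 and 0.137 CPM). Both wt clones were above all other libraries, while KO and E518K overlapped. KO against wt was -1.89 ± 0.58 (-3.26 to -0.53), and the call was lost in 7 of 13 alternative analyses, among them those that left out KO library 1 (-2.68), KO library 3 (-1.39), wt clone 12 (-1.82), E518K clone 8 (-1.90) or E518K clone 15 (-1.90). E518K against wt was -1.45 ± 0.56 (-2.77 to -0.13) and did not pass over all genes.

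Foxa2, a forkhead factor of the anterior streak and endoderm (chromosome 2, 148042877 to 148046969, minus strand), was detected with 10 to 16 counts in every library. It had 0.155 and 0.130 CPM in KO, 0.166 and 0.216 CPM in wt, and 0.180 and 0.192 CPM in E518K. KO lay just below the other groups, at -0.42 ± 0.51 against wt (-1.62 to 0.78). E518K against wt was -0.04 ± 0.50 (-1.21 to 1.14), and its sign changed without wt clone 16 (0.17) and without E518K clone 8 (0.01). At this depth a change of 2-fold could not have been told from none.

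Gata4, a zinc-finger factor of primitive endoderm and heart (chromosome 14, 63198922 to 63271692, minus strand), had 1.28 and 1.69 CPM in KO, 1.26 and 0.879 CPM in wt, and 1.03 and 0.713 CPM in E518K. KO was the highest group and E518K overlapped wt. KO against wt was 0.47 ± 0.33 (-0.29 to 1.24) and E518K against KO -0.77 ± 0.33 (-1.54 to 0.01). The last passed over all genes without wt clone 12 (-0.76), without wt clone 16 (-0.76) and with only the 4 libraries compared (-0.77).

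Gata6, the paralog of Gata4 that drives primitive endoderm, was lowest in KO, with 6 and 7 counts. The wt clones had 20 and 42 counts and the E518K clones 18 and 8, so that wt lay above all other libraries, as for Sox17, but by 2 counts. No fold change is given, by the TPM limit set above.

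In KO against wt, 5 of the 9 compared genes passed the threshold (edgeR quasi-likelihood test, adjusted p under 0.05 over all 16498 genes), 4 higher (Evx1, Kdr, Nr2f2, Gsc) and 1 lower (Sox17), where 57.2% of all genes passed. The libraries did not overlap for 9 of 9 (6 higher and 3 lower), against 81.7% of all genes (40.1% higher and 41.6% lower). In E518K against wt, 2 of 9 passed, both higher (Evx1 and Kdr), where 23.7% of all genes did. The libraries of 7 of 9 did not overlap (5 higher and 2 lower), against 62% (30.2% and 31.8%). Of the 5 higher, Mixl1 separated only after TMM scaling, with 39 counts in E518K clone 8 against 40 in wt clone 16. In E518K against KO, 4 of 9 passed, T higher and Evx1, Kdr and Nr2f2 lower, where 41.8% of all genes did, and 8 of 9 did not overlap (2 higher and 6 lower), against 80.5% (39.4% and 41.1%). These shares are near the background, and the list was chosen on these libraries, so nothing is read from them. The call of Sox17 also rests on a gene that only wt brought through the filter. Without 1 library at a time, the calls over all genes in E518K against wt ranged from 644 (without E518K clone 15) to 6987 (without wt clone 16) around 3917, while 2 to 3 of the 9 passed. The median log2 difference over the 9 genes was 0.54, 0.44 and -0.41 in the 3 comparisons, beside -0.02 over all genes in each. Each pair of comparisons shares the libraries of 1 group.

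**Figure D3:**
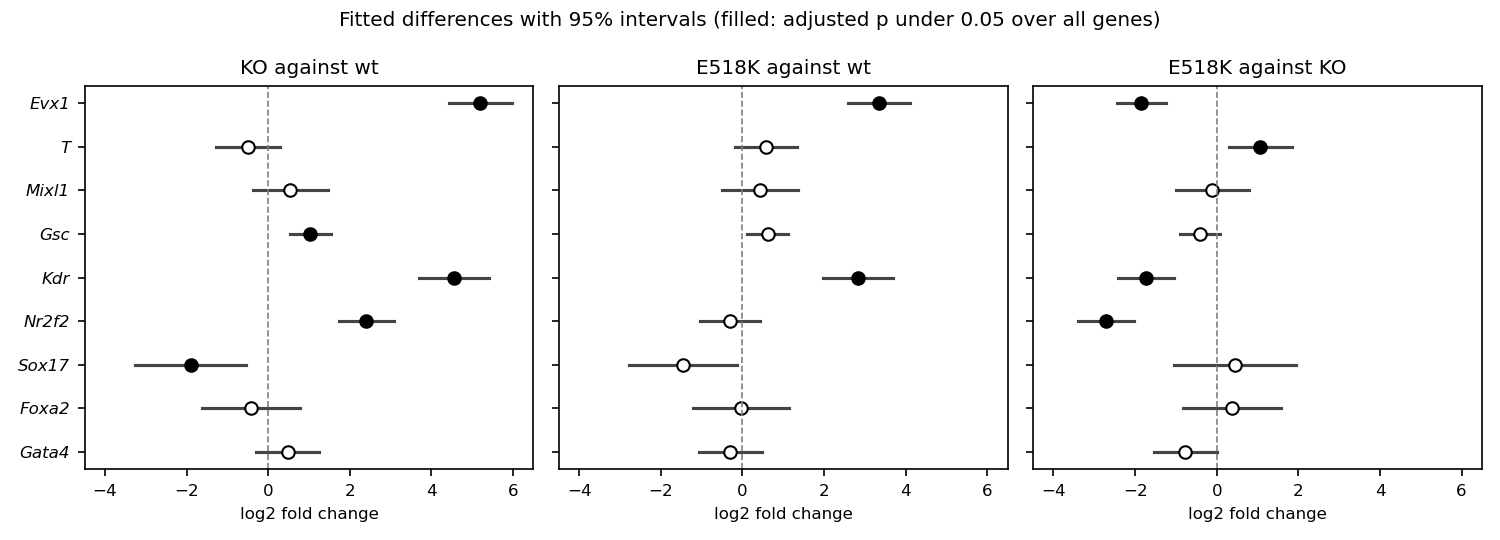
Fitted log2 differences of the 9 compared genes with 95% intervals, for KO against wt, E518K against wt and E518K against KO. Filled points passed the threshold over all genes. Evx1 and Kdr lie far to the right in the first and second panels, and the intervals of Mixl1, Foxa2 and Gata4 include 0 in all 3.

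Because DGCR8 acts through miRNAs, the longest annotated 3′ UTR of each of the 10 genes was searched for seed matches of 6 miRNA families. A seed is bases 2 to 8 of the miRNA, in capitals below, and a match pairs with all 7 of them. Sequences of mature miRNAs are from RefSeq (GRCm38.p6). The seed AAGUGCU was found in 5 miRNAs, miR-291a-3p among them, of which 4 are shown, and miR-16-5p is shown for its matches.

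miR-291a-3p: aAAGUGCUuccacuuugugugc
miR-294-3p: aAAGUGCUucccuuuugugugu
miR-295-3p: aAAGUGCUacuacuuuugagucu
miR-302b-3p: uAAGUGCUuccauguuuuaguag
miR-16-5p: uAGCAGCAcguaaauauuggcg

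Only Mixl1 held a match to the miR-291a-3p seed, 1 of 10 genes, where 15.4% of 18879 genes with a 3′ UTR hold one. It starts 1201 bases after the stop codon (chr1:180693401-180693429, minus strand). Matches to miR-16-5p stood in Mixl1 (chr1:180694092-180694120, minus strand) and Kdr (chr5:75934350-75934378, minus strand), 2 of 10 against 21.3% of all genes, and a match to miR-92a-3p in Gata6. No match to miR-17-5p, miR-19b-3p or let-7a-5p was found. The match is in capitals in each window, which is read 5′ to 3′ on the transcript.

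Mixl1, miR-291a-3p: ccatttttcttAGCACTTgttattatgtt
Mixl1, miR-16-5p: ccataactggaTGCTGCTttttttttttt
Kdr, miR-16-5p: cacgagagaggTGCTGCTtagattttcaa

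The 3′ UTRs of Evx1 (1279 bases), Nr2f2 (2713 bases) and Gsc (282 bases), which were higher in KO, held no match of the 6 families, and Kdr held 1. The gene with the miR-291a-3p match, Mixl1, was among those that did not pass in any comparison. A match or its absence in these letters says nothing on regulation by itself, and sites elsewhere in the transcript were not searched.

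**Figure D4:**
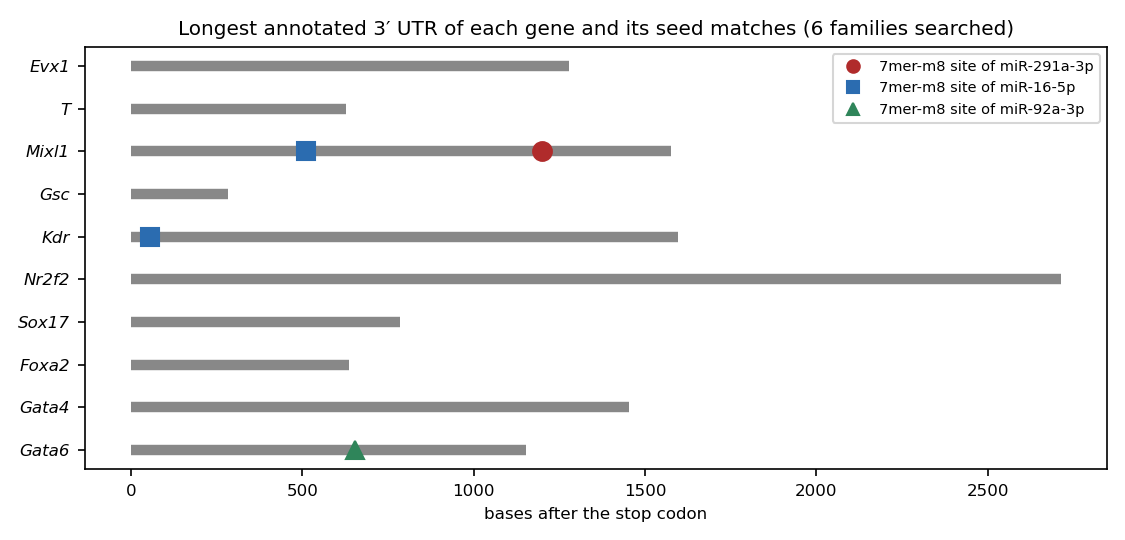
Longest annotated 3′ UTR of the 10 genes as grey bars, in bases after the stop codon, with the seed matches of the 6 families as symbols. Mixl1 holds 2 matches, Kdr and Gata6 1 each, and the other 7 genes none.

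Other genes of the same lineages were taken from 4 lists of textbook genes that do not hold the 10. Of 79 listed genes 63 passed the filter, and 2 of the others (Msgn1 and Evx2) had 0 counts in all libraries. In KO against wt 11 of the 63 rose and 17 fell (44.4% called), beside 27.4% and 29.7% of all genes. In E518K against wt 6 rose and 11 fell (27.0%), beside 11.3% and 12.5%, and in E518K against KO 13 rose and 10 fell (36.5%), beside 22% and 19.8%. The median log2 difference of the 63 was -0.13, 0.06 and 0.17. The share called was below that of all genes in KO against wt (57.2%) and in E518K against KO (41.8%). It was slightly above it in E518K against wt (23.7%). Nothing is read from these shares.

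Among 20 tested streak genes, 5 rose and 7 fell in KO against wt, beside 27.4% and 29.7% of all genes. The median log2 difference of the 20 was -0.13. Sp5, a zinc-finger target of Wnt signalling, followed the order of Evx1: 95.3 and 93.4 CPM in KO, 18.3 and 17.2 CPM in wt, and 55.3 and 42.7 CPM in E518K. By edgeR it was higher in KO than in wt by 2.41 ± 0.13 (adjusted p = 2.73e-05) and rose by 1.47 ± 0.12 in E518K against wt (adjusted p = 0.00120), and was lower in E518K than in KO (-0.95 ± 0.12, adjusted p = 0.00110). The ligands Wnt3 and Wnt3a rose in KO against wt by 1.98 ± 0.40 and 2.24 ± 0.48 (adjusted p = 0.00461 and 0.00616), from levels under 0.3 CPM in wt, and Wnt3a by 2.91 without wt clone 16. Eomes, the T-box gene of streak and endoderm, fell in KO (-0.95 ± 0.10, adjusted p = 2.52e-04), as did the Nodal co-receptor gene Tdgf1 (-0.91 ± 0.10, adjusted p = 3.50e-04) and the Notch ligand gene Dll1 (-2.93 ± 0.37, adjusted p = 6.23e-04). Thus Eomes and Evx1, both streak genes, differed from wt in opposite directions in KO.

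In E518K against wt, 4 of the 20 streak genes rose and 1 fell, beside 11.3% and 12.5% of all genes. Nkx1-2, a homeobox gene of the caudal epiblast, rose by 0.91 ± 0.13 (adjusted p = 0.00478), to 82.7 and 63.2 CPM from 37.0 and 40.3 CPM. Like T it was lowest in KO (19.9 and 20.8 CPM), and E518K exceeded KO by 1.84 ± 0.13 (adjusted p = 2.00e-04). Eomes and Tdgf1 were higher in E518K than in KO, by 1.01 ± 0.10 and 1.00 ± 0.10 (adjusted p = 4.47e-04 and 4.99e-04). In that comparison 7 of the 20 rose and 4 fell (55.0% called, beside 41.8% of all genes). Calls for Fst and Chrd in E518K against wt, and for Wnt3a and Snai1 in E518K against KO, were lost without at least 1 library, with adjusted p up to 0.0913, 0.222, 0.143 and 0.225. For Fst this was E518K clone 15, and for the others either KO library or either E518K clone.

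Among 15 tested mesoderm genes, 1 rose and 2 fell in KO against wt, beside 27.4% and 29.7% of all genes. In E518K against wt 0 rose and 1 fell, beside 11.3% and 12.5%. In E518K against KO 2 rose and 2 fell, beside 22% and 19.8%. The share of the mesoderm list called was below that of all genes in each comparison (57.2%, 23.7% and 41.8% of all genes). Pecam1, an adhesion gene of endothelium that stem cells also express, rose by 1.22 ± 0.08 in KO (adjusted p = 4.43e-05), from 80.7 and 90.6 CPM to 200.4 and 198.1 CPM, and fell by 1.31 ± 0.08 in E518K against KO (adjusted p = 9.71e-05). Unlike Kdr, it was not raised in E518K (82.3 and 78.3 CPM). The calls for Bmp4, Runx1, Etv2 and Tbx20 were each lost without at least 1 library, with adjusted p up to 0.0764, 0.220, 0.232 and 0.154. The libraries were KO library 1 or 3 for all 4 genes, E518K clone 8 or 15 for Runx1, Etv2 and Tbx20, wt clone 16 for Bmp4 and wt clone 12 for Runx1.

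Of 12 tested definitive endoderm genes 4 fell and 2 rose in KO against wt, with a median of -0.71, where 29.7% of all genes fell and 27.4% rose. Cldn6, a tight-junction gene, fell by 4.68 ± 0.31 (adjusted p = 5.56e-05), from 13.2 and 9.44 CPM in wt to 0.375 and 0.505 CPM in KO, and was higher in E518K than in KO by 3.65 ± 0.30 (adjusted p = 2.98e-04). The nuclear receptor gene Hnf4a fell by 1.97 ± 0.35 (adjusted p = 0.00276). Trh, which encodes a peptide hormone precursor, rose by 1.43 ± 0.16 in KO and by 1.71 ± 0.16 in E518K against wt (adjusted p = 3.99e-04 and 0.00159). In E518K against wt 1 rose and 4 fell, beside 11.3% and 12.5% of all genes. In E518K against KO 2 rose and 1 fell, beside 22% and 19.8%. Calls for Foxa3 in KO, Hnf4a, Hhex and Cldn6 in E518K against wt, and Sfrp5 and Hhex in E518K against KO were lost without at least 1 KO library or E518K clone, with adjusted p up to 0.195.

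Among 16 tested extraembryonic endoderm genes, the lineage of Gata4 and Gata6, 3 rose and 4 fell in KO against wt (43.8% called, beside 57.2% of all genes). In E518K against wt 1 rose and 5 fell (37.5%, beside 23.7%). In E518K against KO 2 rose and 3 fell (31.2%, beside 41.8%). The laminin genes Lamb1 and Lama1 fell in KO by 1.57 ± 0.18 and 1.30 ± 0.26 (adjusted p = 4.05e-04 and 0.00447), while Apob, for a lipoprotein, rose by 2.46 ± 0.53 (adjusted p = 0.00606), which was 1.81 without wt clone 12 and 3.67 without wt clone 16. The matrix genes Col4a2 and Sparc were lower in E518K than in KO, by -1.78 ± 0.21 and -0.55 ± 0.08 (adjusted p = 8.41e-04 and 0.00196). Calls for Lamc1, Col4a2 and Rbp4 in KO, for Fgfr2, Lamb1, Sparc and Col4a2 in E518K against wt, and for Fgfr2, Rbp4 and Col4a1 in E518K against KO were lost without at least 1 KO library or E518K clone, with adjusted p up to 0.272. The serum protein genes Afp, Ttr and Apoa1 of visceral endoderm did not pass the filter. Other genes of this list did, among them Apob and also Amn, Cubn, Lrp2 and Dab2, which were not called in any comparison.

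**Figure D5:**
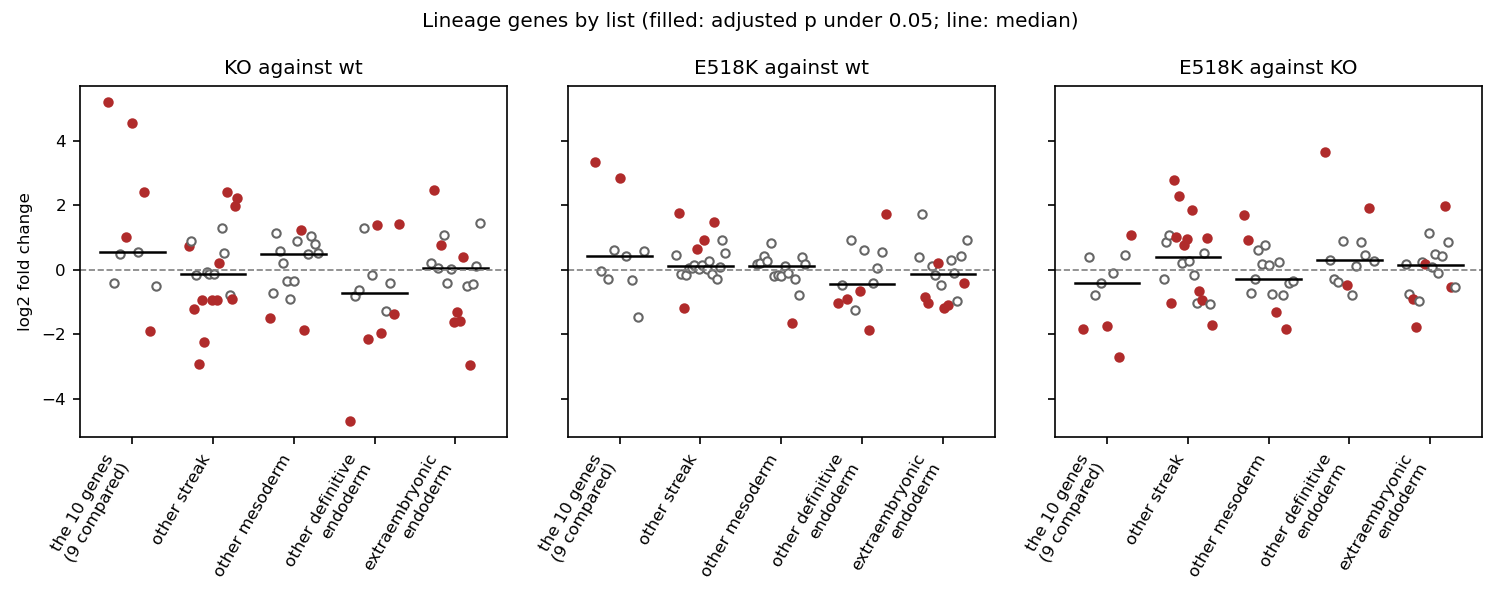
Log2 differences of the 9 compared genes and of the 4 other lineage lists in the 3 comparisons, with 1 point per gene, filled where the gene passed the threshold, and a line at each median. Evx1 and Kdr are the 2 highest points in KO against wt, and the medians of the 4 other lists lie between -0.71 and 0.50 there.

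Relatives and partners of the 10 genes formed a further list of 17, all tested. In KO against wt 4 rose and 8 fell (70.6% called, beside 57.2% of all genes). In E518K against wt 3 rose and 5 fell (47.1%, beside 23.7%). In E518K against KO 6 rose and 2 fell (47.1%, beside 41.8%). While Kdr was higher, the gene for its main ligand Vegfa fell, from 52.5 and 37.0 CPM in wt to 5.28 and 5.64 CPM in KO (-3.04 ± 0.18, adjusted p = 3.88e-05) and 8.15 and 8.72 CPM in E518K (-2.41 ± 0.17, adjusted p = 7.73e-04). Vegfb, a ligand of the related receptor Flt1, fell in KO by 1.74 ± 0.20 (adjusted p = 4.55e-04) and was higher in E518K than in KO by 1.32 ± 0.20 (adjusted p = 0.00223). Zfpm2, a cofactor of GATA proteins, rose in KO by 0.93 ± 0.16 (adjusted p = 0.00246). The T-box gene Tbx3, also a pluripotency marker here, fell in KO by 1.35 ± 0.12 (adjusted p = 1.67e-04) and was higher in E518K than in KO by 0.82 ± 0.12 (adjusted p = 0.00201). Nr2f6, a relative of Nr2f2, was likewise higher in E518K than in KO, by 0.94 ± 0.15 (adjusted p = 0.00273), the direction opposite to Nr2f2. Nr2f1, another relative, went the same way as Nr2f2 and was lower in E518K than in KO, a call that did not hold (below).

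The remaining named calls of this list were lost without at least 1 KO library or E518K clone. They were Vegfc and Gata1 in KO (adjusted p up to 0.0578 and 0.0697), Vegfc, Nrp2, Zfpm2, Zfpm1 and Tbx3 in E518K against wt (up to 0.204), and Flt4 and Nr2f1 in E518K against KO (up to 0.181).

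Marker lists of other types moved as follows. Over all genes 27.4% rose and 29.7% fell in KO against wt. These shares were 11.3% and 12.5% in E518K against wt, and 22% and 19.8% in E518K against KO. Of 12 pluripotency markers 2 rose and 9 fell in KO, 2 and 3 did so in E518K against wt, and 6 rose and 2 fell in E518K against KO. Of 10 tested neuroectoderm markers 1 rose and 0 fell in KO, 1 and 1 did so in E518K against wt and in E518K against KO. Of 7 tested trophectoderm markers 1 rose and 3 fell in KO, 0 and 5 in E518K against wt, and 2 and 2 in E518K against KO. Of 6 tested fibroblast markers 1 rose and 2 fell in KO, 0 and 1 in each of the other comparisons. Thus the higher levels of Evx1, Kdr, Nr2f2 and Gsc in KO stood beside lower levels of 9 of 12 pluripotency markers, while 2 rose. The median log2 difference of the 12 was -0.24 in KO against wt. The part of either change in the other was not tested.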

How the data were processed

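Poly(A)-selected RNA was measured in 6 libraries, 2 per group. The authors deposited raw counts per gene symbol and TPM values, which relate each count to a gene length. Per the submitters' processing notes, STAR, bedtools and the build GRCm38.p6 were used. The sources used here give no version, role or setting. The length implied by count and TPM was within 5% of the genomic span for 98.5% of 12695 genes. For 3.21% it was within 5% of the exonic length. The deposited TPM thus took the span as gene length. Counts may therefore cover introns, but which reads were counted is not stated. Of counts from 1 to 50, 60.8% were even, and 46 of the 60 values of the 10 genes, so mates may have been counted singly and low counts may hold fewer fragments than they show.

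Counts were tested with edgeR 4.0.16 in R 4.3.3 (TMM factors, default filter with a minimum count of 10, robust quasi-likelihood F test, group as the only term, all 6 libraries, 3 residual degrees of freedom, common biological coefficient of variation 11.9%). E518K against wt thus also draws on the spread of KO. P values follow Benjamini and Hochberg over 16498 genes and reflect only how far these libraries differ, which within the KO pair can be technical. Replicates differed by more than sampling noise (chi-square per degree of freedom 3.63 in KO, 54.3 in wt, 22.8 in E518K). The fit was tested on simulated data.

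Members and lists were chosen with earlier results of these data known. All 10 members are named. Of each other lineage or partner list and comparison, the rule took the 3 called genes with the smallest p in each direction, and of the marker lists the 2 most abundant. Those that kept their call in all alternatives are given with values, and 1 other is not reported here. Msgn1, Evx2, Tpbpa, Fap, Afp, Ttr, Apoa1, Amn, Cubn, Lrp2 and Dab2 are named after their values were seen. Tbx3, Hand1 and Gata3 each stand in 2 lists. Alternatives were DESeq2 1.42.0, limma 3.58.1 on log2(TPM + 1), other scaling factors, no filter, fewer libraries and the KO libraries summed. Gene models are GENCODE M21 on GRCm38, and promoters and miRNAs RefSeq GRCm38.p6. All 10 genes had a 3′ UTR and 6 a RefSeq promoter.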

Additional observations from a re-analysis of the deposited data

How the results depend on the processing

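Of 350 recomputed differences of the 9 compared genes, 327 kept their direction and their side of the threshold, 13 lost the call, 7 gained it and 3 changed sign, none of the last a called difference. Evx1, Kdr and Nr2f2 kept every call. The list was drawn up with these same libraries in view, so nothing is supported by that. On log2(TPM + 1), which understates low genes, T lost its call in E518K against KO (0.57), Gsc and Sox17 gained one in E518K against wt (0.47 and -0.27), where 4 of 9 passed, and Gsc in E518K against KO (-0.46). Sox17 (E518K against KO) changed sign without KO library 3 (range over libraries left out -0.055 to 1.24). It could not be fitted with only those 4 libraries, where it did not pass the filter. Foxa2 (E518K against wt) changed sign without wt clone 16 and without E518K clone 8 (range -0.21 to 0.17). T also lost its call with the KO libraries summed (1.07).

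Without 1 library at a time, 3 to 5 of the 9 passed in KO against wt, 2 to 3 in E518K against wt and 3 to 5 in E518K against KO. For the other lineage genes the ranges were 17 to 33, 3 to 24 and 12 to 31, and for all genes 6084 to 10958, 644 to 6987 and 3285 to 9482. The count of 644 came without E518K clone 15, 1650 without E518K clone 8 and 6987 without wt clone 16. A group left with 1 library is assumed to vary like the others. With the KO libraries summed, all genes gave 6163, 1909 and 3267 calls and the other lineage genes 18, 9 and 13. With only the 4 libraries compared, E518K against wt gave 1999 and 9. The share of higher calls over all genes was 47.5% in E518K against wt (37.5% with upper-quartile factors, 26.8% with limma) and 52.7% in E518K against KO (40.7% with limma). For the other lineage genes no scaling moved it by over 10 points. Of 68 named calls outside the 10 genes, 32 held in all alternatives. Searching every annotated 3′ UTR left the number of genes with a match as it was for each family. No paired analysis was possible because the groups share no replicate numbers. Depth limits Sox17, Foxa2 and Gata6, which had 4 to 42 counts.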
